A study of Rattus norvegicus with 10 samples.

Results

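Tall pileups with a low peak score are m6A peaks whose summit stands above a height of 45 while the peak scores below 100. The summit height is the read pileup at the highest base of a peak, and the score grows as the p-value of the m6A immunoprecipitate (IP) against the IgG control falls. By this rule 2105 of 65539 peaks were chosen in hypertrophic cells (3.21%) and 1782 of 68440 in quiescent cells (2.60%), 3887 of 133979 peaks in all. They made up 15.4% of the 13670 hypertrophic and 14.99% of the 11891 quiescent peaks taller than 45. They were 7.75% and 6.56% of the peaks scoring below 100. The peaks were selected on height and score, so both are given as descriptions.

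The series profiled m6A, a methyl mark on adenosine in RNA, in primary cardiomyocytes taken from newborn rats of 1 to 3 days. Hypertrophic cells were kept in M199 medium with 2% bovine serum, and quiescent cells in the same medium free of serum. For each state there were 2 libraries of input RNA and 2 of m6A IP, and 2 IP libraries with normal IgG, which is not directed against m6A, came from hypertrophic cells only. Each state is represented by 1 deposited peak list called against that IgG control, so spread between replicates is unknown throughout and nothing was tested. Intervals are Wilson 95% intervals of shares, which treat peaks as independent and cover counting error only.

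The mark is placed on nascent RNA by a methyltransferase complex with METTL3 and METTL14 at its core, can be removed by the demethylases FTO and ALKBH5, and is bound by YTH-domain proteins that act on RNA decay and translation. In messenger RNA it is known to gather around stop codons, in the last exon and in long internal exons. An antibody pulls down fragments that carry it, and a peak caller asks whether reads pile up more there than in a control. A pileup can be tall because many fragments carry the mark or because the RNA is plentiful, and the score adds the comparison with the control. The pileup of the IgG libraries was not analysed here, so the height of each peak over its own control is not given. Coordinates are in build rn4. The only gene annotation given was of a newer assembly, GRCr8. The peaks therefore carry positions but no genes, exons or sequence, and the cell type could not be checked against marker genes.

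Members spanned the whole range of heights from the bound to the top of the lists. In the hypertrophic list their heights ran from 46 to 164, with a median of 71 and quartiles of 55 and 101. Quiescent heights also ran from 46 to 164, with a median of 75 and quartiles of 57 and 106. Heights of tall peaks that scored 100 or more were much alike, with medians of 77 and 76, so the heights of both kinds of tall peak overlapped widely. Scores of members had medians of 72.66 and 72.44, against 471.1 and 500.5 for the other tall peaks. No list held a height over 164, and 16 hypertrophic and 17 quiescent members stood exactly at it, so a ceiling may hide differences between the tallest.

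**Figure D1:**
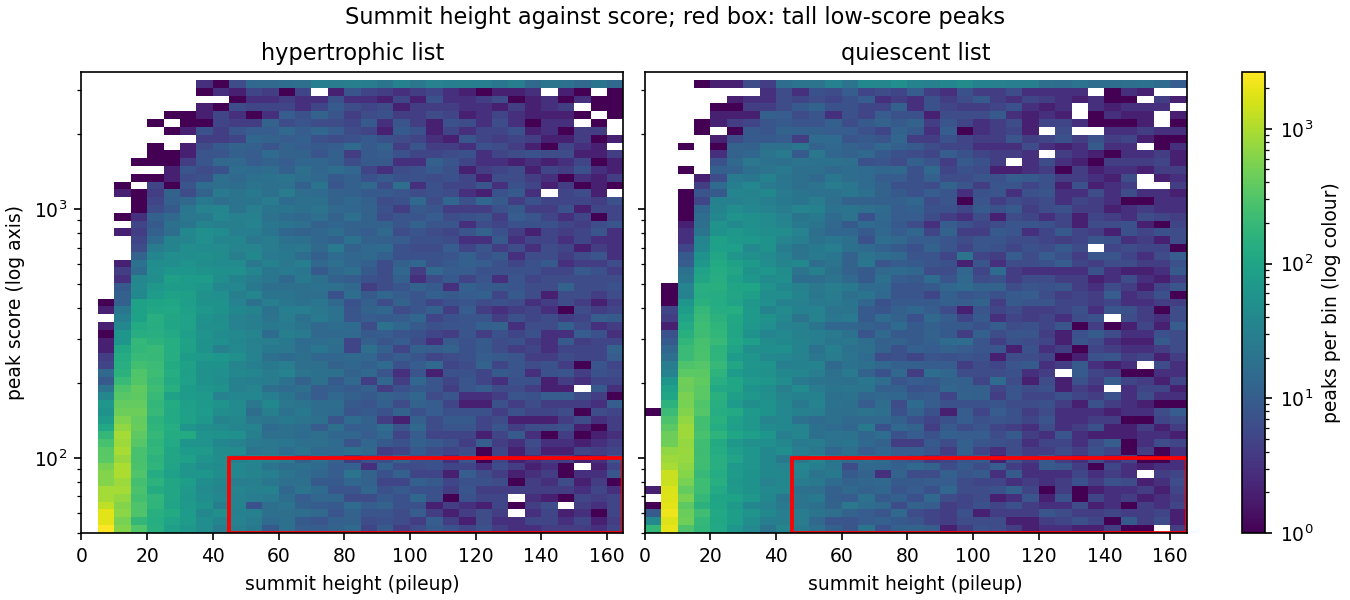
Number of peaks (log colour) by summit height (pileup, x axis) and peak score (log y axis) in the hypertrophic list (left) and the quiescent list (right); the red box, above 45 in height and below 100 in score, holds the tall low-score peaks. The 2105 and 1782 peaks in the box lie in a continuous spread of heights and scores, with no gap at either bound.

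Neither bound fell in a gap. The 2 hypertrophic members nearest to the score bound scored 99.92 and 99.91, and the nearest tall peaks beyond it 100.02 and 100.04. The quiescent counterparts were 99.93 and 99.92 inside, and 100 and 100.01 outside. Between 95 and 100 there were 167 tall hypertrophic peaks, and between 100 and 105 there were 167. The same ranges held 157 and 142 quiescent peaks. At a height of 46, just inside, stood 58 hypertrophic and 52 quiescent low-score peaks, and at 45, just outside, 67 and 65.

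Members were wider than short low-score peaks and narrower than the other tall peaks. The hypertrophic members had a median width of 485 bp, the middle part running from 311 to 804 bp. The quiescent members had a median of 472 bp, the middle part from 300 to 795 bp. Low-score peaks of height 45 or less had medians of 249 and 245 bp, and tall peaks of score 100 or more had medians of 717 and 747 bp. The upper quartile of the short low-score peaks, 317 and 308 bp, lay close to the lower quartile of the members. A width over 1000 bp was found in 359 hypertrophic members (17.1%) and 309 quiescent members (17.3%). It was found in 0.347% and 0.339% of the short low-score peaks, in 29.5% and 32.3% of the other tall peaks, and in 6.93% and 6.86% of all peaks. Width rose with height among members, from a median of 409 bp at heights of 46 to 60 to 984 bp at heights of 131 to 164 in the hypertrophic list. The quiescent medians for those heights were 398 and 887 bp. Low-score peaks of height 31 to 45, just below the height bound, had medians of 354 bp (hypertrophic) and 376 bp (quiescent). Width thus showed no jump at the bound. Height and width are measured on the same reads, and their share in one another was not tested.

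The widest members spanned several kilobases. The widest hypertrophic member lay at chr10:86915526-86921845, with a width of 6320 bp, a height of 162 and a score of 60.61. Its quiescent partner covered chr10:86915540-86921839, with a height of 157 and a score of 240.1, and the summits were 20 bp apart. The ends of the 2 peaks nearly coincided, while only the hypertrophic one met the rule. The widest quiescent member, at chr5:51439920-51447606, measured 7687 bp with a height of 138 and a score of 79.27, and its nearest hypertrophic peak lay 8075 bp away. A quiescent member at chrX:99538053-99543819 measured 5767 bp and scored 62.31 at a height of 135. The hypertrophic peak at the same place had a height of 132 and a score of 410.2, with its summit 1004 bp away.

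**Figure D2:**
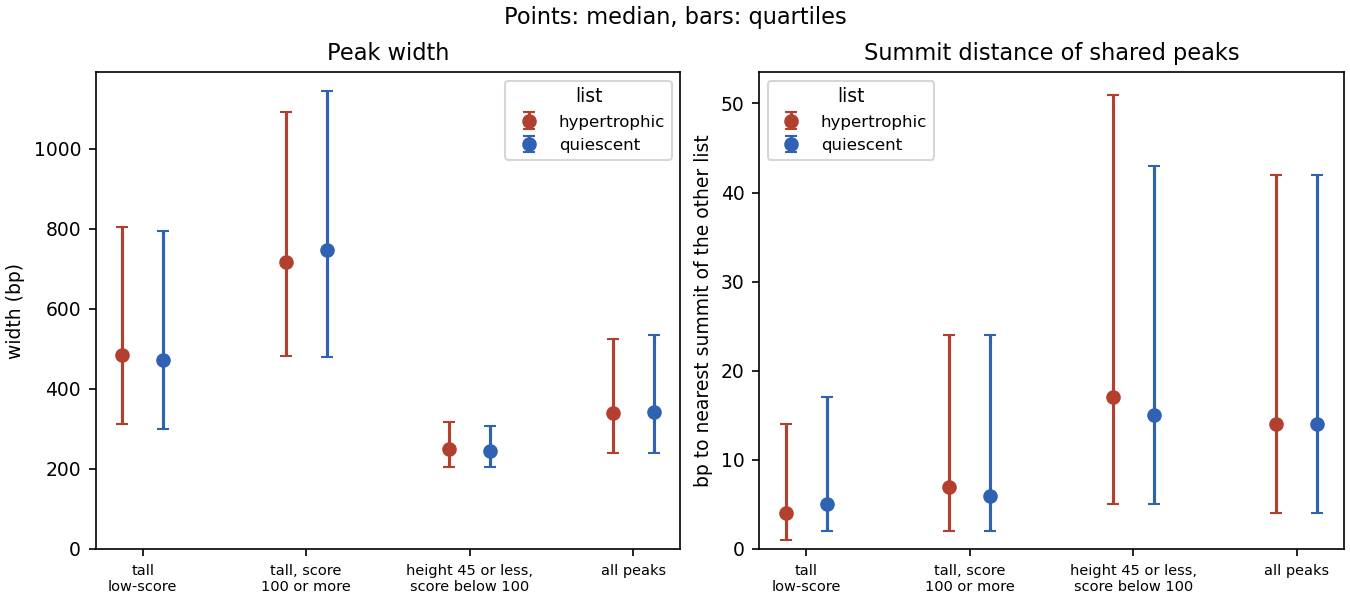
Peak width in bp (left) and distance in bp from the summit of a shared peak to the nearest summit of the other list (right), for tall low-score peaks, tall peaks of score 100 or more, low-score peaks of height 45 or less and all peaks of each list; points are medians and bars run between quartiles. Tall low-score peaks had medians of 485 and 472 bp in width, between the other classes, and summit distances of 4 and 5 bp.

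Members were shared with the other list less often than the average peak. Sharing means an overlap of at least 1 bp. In the hypertrophic list 1274 members had a quiescent partner (60.5%, interval 58.4 to 62.6%) and 831 had none, against 74.2% shared among all hypertrophic peaks. In the quiescent list 965 had a hypertrophic partner (54.2%, interval 51.8 to 56.5%) and 817 had none, against 71.0% among all quiescent peaks. Score goes along with these shares. Short low-score peaks were shared at 50.2% and 48.7%, and tall peaks of score 100 or more at 95.6% and 96.1%. Having 2 or more partners was rare in every class. It was found for 10 hypertrophic (0.475%) and 7 quiescent members (0.393%), against 1.37% and 1.32% of all peaks. The other tall peaks stood at 2.80% and 2.28%, and the short low-score peaks at 0.319% and 0.229%.

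With increasing height the shared fraction went opposite ways in the lists. In the hypertrophic list it was 57.4% at heights of 46 to 60 (interval 53.8 to 60.9%, 746 peaks), 55.3% at 61 to 80 and 59.0% at 81 to 100. It was then 64.4% at 101 to 130 and 80.5% at 131 to 164 (interval 74.7 to 85.2%, 215 peaks). The quiescent fraction was 64.3% at 46 to 60 (interval 60.2 to 68.2%, 543 peaks), 60.9% at 61 to 80 and 55.0% at 81 to 100. It was then 44.9% at 101 to 130 and 27.1% at 131 to 164 (interval 21.7 to 33.3%, 225 peaks). Thus 42 of the 215 tallest hypertrophic members lacked a quiescent partner, while 164 of the 225 tallest quiescent members lacked a hypertrophic one. At the top height of 164, 13 of 16 hypertrophic and 1 of 17 quiescent members were shared. The height classes were set after the values were seen, and the difference between the lists was not tested.

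**Figure D3:**
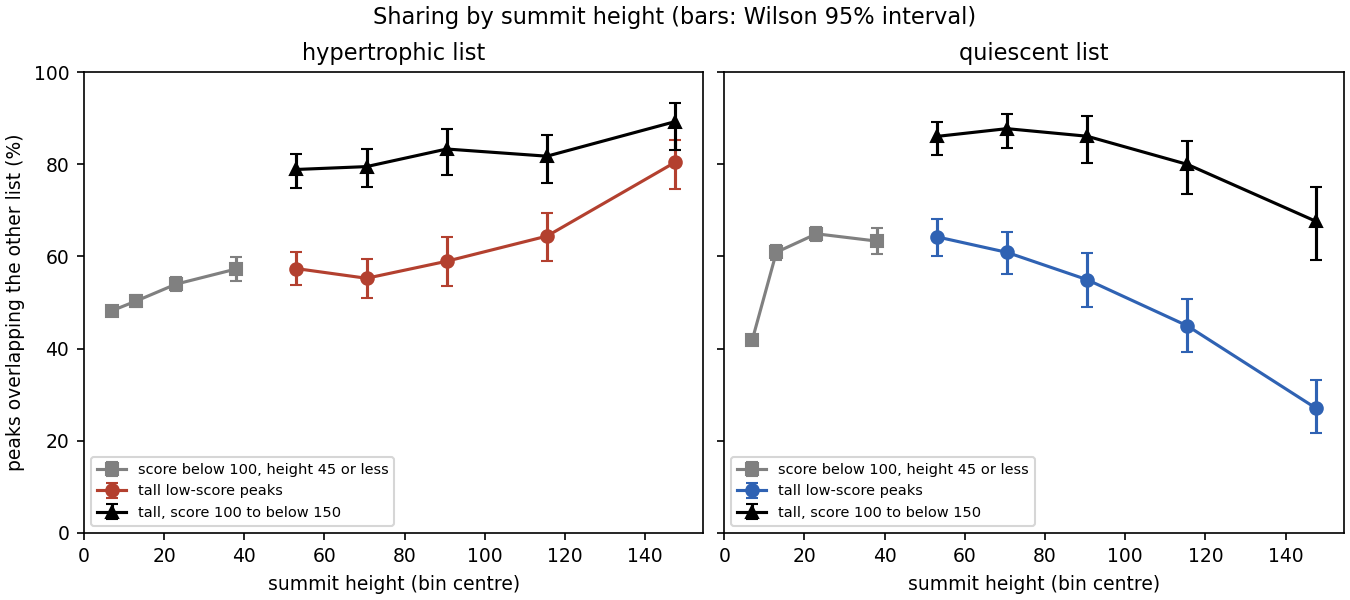
Share of peaks that overlap a peak of the other list (y axis, %) by summit height (x axis, bin centres) for tall low-score peaks (coloured circles), low-score peaks of height 45 or less (grey squares) and tall peaks scoring 100 to below 150 (black triangles), in the hypertrophic (left) and quiescent list (right); bars are Wilson 95% intervals. In the tallest bin the tall low-score peaks stand at 80.5% on the left and at 27.1% on the right.

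The same order was seen in narrower ranges of score. Among members scoring 75 to below 100, the shared fraction at heights of 131 to 164 was 82.8% in the hypertrophic list (87 peaks) and 33.7% in the quiescent list (98 peaks). Among those scoring 50 to below 60 it was 71.2% (59 peaks) and 21.7% (60 peaks). At heights of 46 to 60 the same 2 score ranges gave 64.5% and 44.0% in the hypertrophic list and 73.1% and 52.8% in the quiescent list. Peaks of height 131 to 164 just above the score bound, from 100 to below 150, were shared at 89.3% (hypertrophic) and 67.7% (quiescent). With scores of 400 or more the shares at that height were 99.5% and 98.7%. The gap between the lists was thus narrower above the score bound, where both shares neared 100%. Among members it did not narrow steadily with score, as scores of 60 to below 75 gave 85.5% and 22.4% at that height. Below a height of 46 the low-score quiescent peaks were shared at 41.9% at heights up to 10 and at 63.3% at 31 to 45. The low quiescent share at the top of the height range therefore did not continue a trend from the short peaks.

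Where a partner existed, it mostly had a tall pileup as well, which was not particular to members. Quiescent partners of hypertrophic members were above 45 in 1112 of 1274 cases (87.3%), with a median height of 72 against 75 for the members themselves. Hypertrophic partners of quiescent members were above 45 in 953 of 965 cases (98.8%), with a median height of 84 against 69. These shares are not given for other peaks. Tall peaks scoring 400 or more at heights of 61 to 80 also had tall partners by the median. Their medians, own and partner, were 70 and 59 in the hypertrophic list and 70 and 74 in the quiescent list. The median log2 ratio of the partner's height to the member's was -0.07 for hypertrophic members (quartiles -0.19 and 0.03) and 0.19 for quiescent members (quartiles 0.08 and 0.35). The hypertrophic pileup was the taller of the pair by the median in both directions, but members were chosen for height in their own list, which favours a taller hypertrophic summit among hypertrophic members and works the other way among quiescent ones. The scaling of heights is not stated, so library depth and signal cannot be told apart in these ratios.

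Partner scores spanned both sides of the score bound. They ran from 50.21 to 3100 for hypertrophic members, with a median of 100.9 and quartiles of 74.0 and 146.9. For quiescent members they ran from 50.06 to 1943, with a median of 95.1 and quartiles of 68.8 and 146.8. The partner itself scored below 100 in 629 of 1274 cases (49.4%) and 514 of 965 cases (53.3%). A partner score of 200 or more was found in 137 (10.8%) and 146 cases (15.1%). The share at 200 or more is not given for other peaks. Short low-score peaks had partner scores close to those of members, with medians of 94.96 and 92.5. Their partners scored below 100 in 54.1% and 56.1% of cases. Members were chosen for a low score in their own list, which by itself makes a higher partner score likely. Both lists also share the IgG control.

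At the tallest members the partner scores differed between the lists. Quiescent partners of hypertrophic members at heights of 131 to 164 had a median score of 127.1 against 71.69 for the members, and scored higher in 154 of 173 pairs (89.0%). Hypertrophic partners of quiescent members of that height had a median score of 81.23 against 77.55, and scored higher in 34 of 61 pairs (55.7%). At heights of 46 to 60 the share of pairs with the higher partner score was alike in both lists, 70.3% of 428 and 69.3% of 349. The heights of the tallest pairs were close, with medians of 149 and 145 for hypertrophic members and their partners and 145 and 152 for quiescent members and theirs. Both lists start at a score of 50, so a site that scores less in the other list counts as unshared in either direction; the part of this bound in the shared fractions was not tested.

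**Figure D4:**
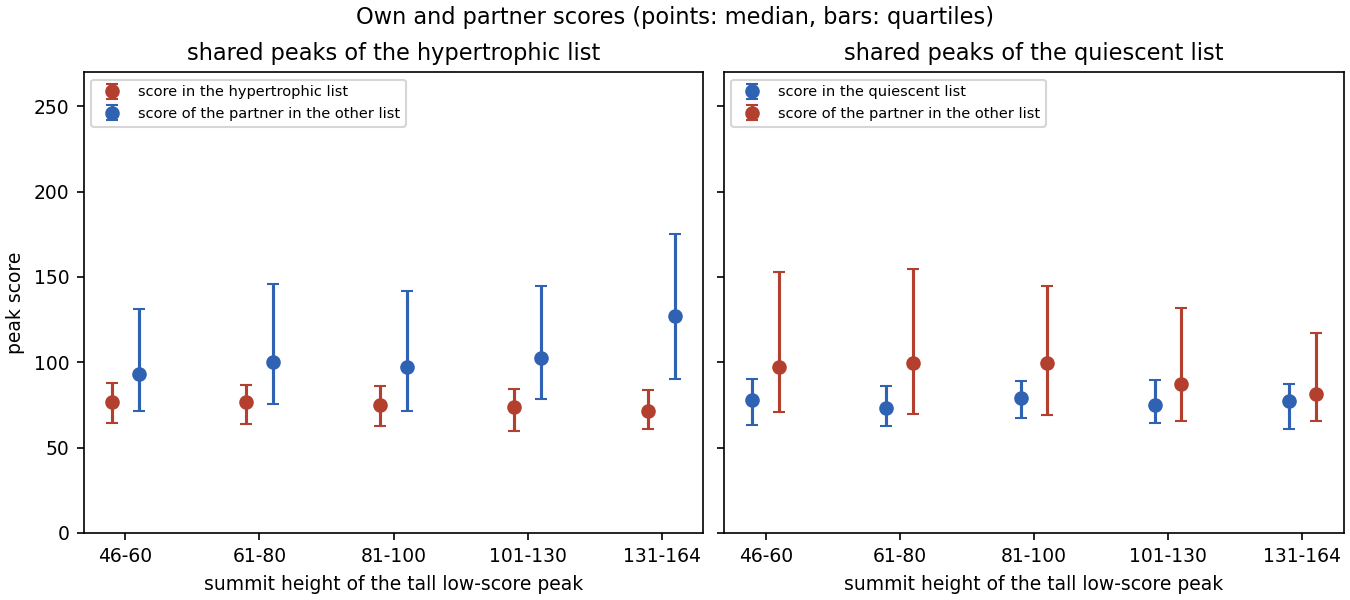
Score of shared tall low-score peaks and of their partners in the other list (y axis) by the height class of the tall low-score peak (x axis), for the hypertrophic list (left, red own score and blue partner score) and the quiescent list (right, blue own score and red partner score); points are medians and bars run between quartiles. In the tallest class the median partner score is 127.1 on the left and 81.23 on the right.

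A core of 503 sites met the rule in both lists, 23.9% of the hypertrophic and 28.2% of the quiescent members. Their median heights were 81 (hypertrophic) and 72 (quiescent), and their median scores were 70.34 and 75.29. The hypertrophic summit was the taller at 411 of these sites, the quiescent at 66, and 26 were equal. The score was higher in the quiescent list at 292 sites and in the hypertrophic list at 210, and 1 was equal. Median widths were 442 and 438 bp. Most of the core sites thus had more pileup in the hypertrophic list, while the higher score was split more evenly. The median log2 ratio of the quiescent to the hypertrophic height was -0.13 at the core sites. It was also below 0 over all sites with summits within 100 bp of each other and both scores below 3100. Those medians were -0.18 at mean heights above 60 and up to 80, -0.14 above 80 and up to 100, and -0.04 above 130. The taller hypertrophic pileup was therefore not particular to the core, and its cause was not tested. The other shared members had a partner outside the rule: 609 hypertrophic members met a tall quiescent peak of score 100 or more, 126 a short low-score peak and 36 a short peak of higher score. For quiescent members these numbers were 450, 11 and 1.

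Shared summits lay almost on the same base. The median distance to the nearest summit of the other list was 4 bp for hypertrophic members, with quartiles of 1 and 14 bp, and 5 bp for quiescent members, with quartiles of 2 and 17 bp. It was 17 and 15 bp for short low-score peaks, 7 and 6 bp for the other tall peaks, and 14 bp for all shared peaks in either list. Summits fell on the very same base at 129 hypertrophic members (10.1%) and 85 quiescent members (8.81%), against 3.45% and 3.67% of the short low-score peaks. The other tall peaks stood at 7.62% and 8.15%, near the quiescent members, and all shared peaks at 4.68% in either list. Within 10 bp lay 69.3% and 64.7% of the member summits, against 57.8% and 59.0% for the other tall peaks and 44.5% for all shared peaks in either list. Within 100 bp lay 94.1% and 91.6% of the member summits, and those of 75 and 81 shared members lay farther away. All shared peaks stood at 87.9% and 88.0% within 100 bp, and the other tall peaks at 91.0% in either list. Among members the distance changed little with height, from 4 to 5 bp over the hypertrophic height classes and from 6 to 4 bp over the quiescent ones. Among short low-score peaks it fell with height. Their medians were 29 bp (hypertrophic) and 22 bp (quiescent) at heights up to 10, and 6 bp in both lists at heights of 31 to 45. The short peaks nearest in height to the members thus had similar distances.

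Members without a partner differed from shared ones in width, in opposite directions in the lists. Hypertrophic-only members were wider than shared ones, with medians of 542 against 445 bp, while quiescent-only members were narrower, with medians of 395 against 527 bp. Their median heights were 68 and 86. Their median scores, 68.17 and 67.6, differed little from each other. The width order held in all 5 height classes of either list: at heights of 101 to 130, for example, hypertrophic-only members measured 798 bp against 449 bp when shared, and quiescent-only members 391 bp against 644 bp. It was not particular to members. Low-score peaks of height 31 to 45 measured 375 (hypertrophic-only) against 340 bp, and 344 (quiescent-only) against 390 bp. Tall peaks scoring 100 to below 150 at heights of 61 to 80 measured 693 against 461 bp, and 393 against 530.5 bp. At heights of 131 to 164 the quiescent order of that score range was reversed, with 1258 against 888 bp.

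Quiescent-only members lay closer to peaks of the other list. The gap from a hypertrophic-only member to the nearest quiescent peak had a median of 7004 bp (quartiles 2296 and 17259), and 356 of 831 (42.8%) lay within 5 kb. For quiescent-only members the median gap was 4374 bp (quartiles 1469 and 12050), and 432 of 817 (52.9%) lay within 5 kb. Unshared short low-score peaks had a hypertrophic-to-quiescent median of 7110 bp and a quiescent-to-hypertrophic median of 9277 bp, with 41.1% and 37.3% within 5 kb. That order turned with height: at heights of 31 to 45 the medians were 6183 and 5176 bp, in the same order as the members, and at heights up to 10 they were 7082 and 10614 bp. Within 1 kb lay 124 hypertrophic-only (14.9%) and 146 quiescent-only members (17.9%). The 164 quiescent-only members of height 131 to 164 lay on 20 chromosomes, with at most 16 on any of them, and 76 had a hypertrophic peak within 5 kb.

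The tallest unshared members give the range of these settings. At the top height of 164 stood 17 quiescent members, of which 1 was shared. Ties were broken by lower score, so the 5 named as tallest are the lowest-scoring of these. All 5 had a height of 164 and no hypertrophic partner. At chr9:39167132-39167683 the score was 52, the width 552 bp and the nearest hypertrophic peak 7611 bp away. At chr2:34701225-34702326 the score was 56.88, and 3295 bp away lay another quiescent peak of height 133 and score 54.18. At chr16:1718788-1719220 the score was 62.55, with a hypertrophic peak at 2237 bp and 1 tall quiescent peak of score 100 or more within 5 kb. The remaining 2, at chr13:78367598-78368417 and chr4:62124179-62125463, scored 62.08 and 66.13, with gaps of 4142 and 11305 bp. Distances to the other list thus ran over several kilobases among peaks of equal height.

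At the top height of 164 stood 16 hypertrophic members, 13 of them shared. Ties were broken by lower score, so the 5 named as tallest are the lowest-scoring of these. Their low scores therefore follow from the choice. Of these 5, 3 were shared. The unshared ones lay at chr6:79765299-79767003, with a score of 50.62 at 54476 bp from any quiescent peak, and at chr1:214549344-214550737, with a score of 50.8 and a gap of 100578 bp. Both lacked any other hypertrophic peak within 5 kb and scored barely above the lowest score in the list. The shared ones, at chr2:208423638-208424648 and chr3:66839800-66840769, scored 52.07 and 56.13, and their partners had the same height of 164 with scores of 150.6 and 151.9. At chr12:36230549-36231517 the score was 55.6 and that of the partner 55.7, with heights of 164 and 161, so this peak met the rule in both lists. Further hypertrophic-only members of great height lay at chr11:57253793-57256473, chr1:190307551-190308359 and chr15:60762708-60763332, with heights of 164, 163 and 161 and gaps of 282, 6693 and 4601 bp.

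A neighbour within 5 kb was about as common for hypertrophic members as for the average peak, and more common for quiescent members. Another peak of the same list lay within 5 kb of 1056 hypertrophic members (50.2%, interval 48.0 to 52.3%), against 49.8% of all hypertrophic peaks. Among quiescent members 979 had one (54.9%, interval 52.6 to 57.2%), against 48.7% of all quiescent peaks. The hypertrophic share is near its background and the quiescent share is above it. Short low-score peaks stood at 45.3% and 45.03%, and other tall peaks at 57.7% and 58.2%. The median gap to the nearest peak of the same list was 4958 and 3976 bp for members, against 5055 and 5330 bp for all peaks. Members with 3 or more peaks within 5 kb numbered 133 (6.32%) and 159 (8.92%), against 8.14% and 8.73% of all peaks. Crowded settings were thus below the background in the hypertrophic list and near it in the quiescent list.

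What stood near a member, by contrast, was often tall. A tall peak of score 100 or more lay within 5 kb of 594 hypertrophic members (28.2%, interval 26.3 to 30.2%), against 14.3% of all hypertrophic peaks and 10.3% of the short low-score peaks. In the quiescent list it lay within 5 kb of 572 members (32.1%, interval 29.97 to 34.3%), against 12.3% of all quiescent peaks and 8.53% of the short low-score peaks. Tall peaks of score 100 or more had such a neighbour at 27.0% and 27.9%, close to the hypertrophic members and below the interval of the quiescent ones. Among members with a neighbour within 5 kb, the nearest one had a median height of 65 in both lists. The same median was 40 for the other tall peaks in both lists, and 16 and 14 for short low-score peaks. The nearest neighbour was itself above 45 for 62.7% and 64.1% of these members, against 23.9% and 20.6% of all peaks with a neighbour within 5 kb. For the other tall peaks it was 44.6% and 45.4%. The nearest neighbour was another member for 175 (16.6%) and 173 members (17.7%). Among all peaks it was a member for 3.20% and 2.96%, and among the other tall peaks for 7.18% and 7.60%. Neighbouring peaks often lie on the same RNA, so their heights are not independent measurements.

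**Figure D5:**
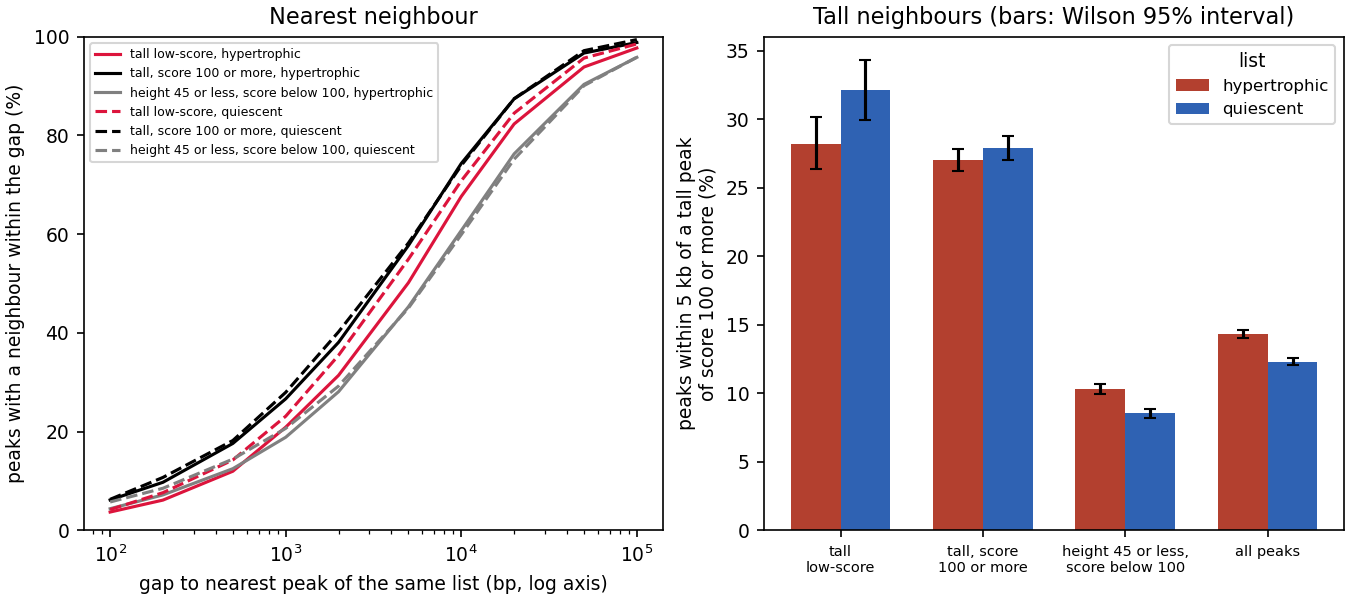
Left, cumulative share of peaks (y axis, %) whose nearest peak of the same list lies within a given gap (x axis, bp, log scale), for tall low-score peaks (red), tall peaks of score 100 or more (black) and low-score peaks of height 45 or less (grey), solid for the hypertrophic and dashed for the quiescent list; right, share of each class within 5 kb of a tall peak of score 100 or more, with Wilson 95% intervals. Tall low-score peaks lie between the other classes on the left for gaps of 5 kb, and on the right they stand at 28.2% and 32.1% against 14.3% and 12.3% of all peaks.

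Members in the most crowded settings had up to 6 other peaks within 5 kb. The hypertrophic member at chr5:49067757-49067986 was 230 bp wide, with a height of 104 and a score of 73.61. Of its 6 neighbours, 5 were tall peaks of score 100 or more, and its quiescent partner had a height of 111 and a score of 123.7. At chr19:39426982-39427269 a member of height 74 and score 97.31 had 6 neighbours and a quiescent partner with a height of 57 and a score of 86.38, which met the rule too. In the quiescent list, the member at chr10:39141609-39141875 had 6 neighbours, a height of 62 and a score of 65.03, and its hypertrophic partner had a height of 63 and a score of 66.17. The quiescent member at chr15:56202763-56203847 stood at the top height of 164 with a score of 92.56. It had 6 neighbours, 5 of them tall with scores of 100 or more, but no hypertrophic partner, and the nearest hypertrophic peak lay 1386 bp away. At chr17:8458089-8458963 a hypertrophic-only member had the lowest member score of its list, 50.01, at a height of 70, beside a peak of score 1499 at a gap of 340 bp.

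Members were spread over all chromosomes that the lists cover, 1 to 20 and X. Their share of all peaks ran from 2.37% on X (44 of 1856, interval 1.77 to 3.17%) to 3.91% on chromosome 10 (141 of 3605, interval 3.33 to 4.59%) in the hypertrophic list. The quiescent share ran from 2.11% on chromosome 12 (46 of 2176, interval 1.59 to 2.81%) to 3.17% on chromosome 10 (114 of 3597, interval 2.64 to 3.79%). As a share of tall peaks, members ran from 13.3% on chromosome 18 to 18.8% on chromosome 17 in the hypertrophic list and from 12.7% on chromosome 14 to 18.8% on X in the quiescent list. Chromosome 10 was highest among all peaks in both lists, and X was lowest in the hypertrophic list alone. Members within 1000 bp of each other were rare: joined in that way, they formed 2066 hypertrophic and 1745 quiescent loci.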

How the data were processed

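Per the submitters' processing notes, the authors used MACS 1.4, TopHat and CASAVA 1.8 with rat build rn4; no settings are given. Pooling of the IP replicates is not stated in the labels. The peak score deposited by the authors follows the BED layout of MACS 1.4, a multiple of minus log10 of the p-value. The deposited summit height is a signal, always a whole number, whose scaling is not stated. The labels state no read totals, so depth is unknown beyond the heights. Of the value columns, 0 were left out.

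Each summit was joined to its peak by name. Sharing was an overlap of at least 1 bp, a member's partner was the overlapping peak with the nearest summit, and gaps run between peak ends. Distances to the nearest summit consider every summit of the other list. Python 3.11.15, numpy 2.4.6, pandas 2.3.3, scipy 1.17.1 and matplotlib 3.10.9 were used. On simulated lists, sharing was right for 5000 of 5000 peaks and the summit distance for 3504 of 3504.

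The named peaks are, per list, the 5 tallest, the 5 tallest condition-only, the 5 widest and the 5 with most neighbours, not all of which are printed, with ties broken by lower score. The members and comparisons were chosen with earlier results of these data known. No sequence was used. Alternatives changed the height and score bounds, the lowest score kept, the overlap rule, the neighbour distance and the counting of joined members.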

Additional observations from a re-analysis of the deposited data

How the results depend on the processing

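Of 58 alternatives listed, 37 left a value within its interval or a count within 1.5 times, and 21 did not. A height bound of 60 left 1359 hypertrophic members, and median widths of 546 and 524 bp (hypertrophic, quiescent), with 49.7% of quiescent members shared. A score bound of 75 left 1156 and 983 members, of which 54.8% and 46.4% were shared, and 24.0% and 33.3% of shared members then had a partner within the rule. With peaks scoring below 60 left out of both lists, 57.8% and 50.04% were shared, 31.4% and 42.2% of shared members had a partner within the rule, and 47.3% of hypertrophic members had a neighbour within 5 kb. Requiring summits within 100 bp lowered the shared fractions to 57.0% and 49.6%. A neighbour was found within 1 kb of 20.9% and 23.1% of members, and within 20 kb of 82.3% and 84.5%. Apart from the neighbour distances and the counts of members, which follow from the settings, the cause of these moves was not tested. Every one of these settings that bears on sharing left the hypertrophic fraction, over all heights kept, above the quiescent one. This order did not hold in each height class. With the main settings the fractions (hypertrophic, quiescent) were 57.4% and 64.3% at heights of 46 to 60, and 55.3% and 60.9% at 61 to 80. From a height of 81 upward the hypertrophic fraction was the higher in each class. All peaks had the same order as all members, with 74.2% and 71.0% shared.

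Of 10 alternatives for members of height 131 to 164, chosen after seeing the data, 2 moved the quiescent shared fraction beyond its interval, to 37.3% when a hypertrophic peak within 1000 bp sufficed and to 33.7% for scores of 75 to below 100. The hypertrophic fraction ran from 77.2% to 83.7% over its 5 alternatives, and the quiescent fraction from 24.0% to 37.3%. The other score ranges, which are not among these, gave 71.2% and 21.7% for scores of 50 to below 60 and 85.5% and 22.4% for 60 to below 75. With heights of 150 or more left out, they were 80% and 32.1%. No paired analysis was possible because each condition has 1 list and none of the values comes from a test on replicates. Unknown read depth limits every height and score.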

Other observations

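Over all sites with summits within 100 bp of each other in both lists and both scores below 3100, not chosen for a low score, the quiescent score was also relatively higher at the tallest pileups. At mean heights above 130 the median log2 ratio of the quiescent to the hypertrophic score was 0.37 (quartiles -0.02 and 0.77), and the quiescent score was the higher at 876 of 1190 sites (73.6%). At mean heights above 60 and up to 80 the ratio was -0.04 (quartiles -0.50 and 0.39), with 1162 of 2466 sites (47.1%) higher in the quiescent list. The log2 ratio of the heights had medians of -0.04 and -0.18 at these sites, so the quiescent list had the lower pileup by the median in both ranges. The quiescent score was the higher at 55.4% of 14382 sites at mean heights of 4 to 15. Above 100 and up to 130 it was the higher at 56.2% of 1658 sites. The share thus did not rise steadily with height, and the range above 60 and up to 80 had the lowest share. The sites include the members described above, and the values have no replicate error.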
